A study of Drosophila melanogaster with 21 samples.

Results

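Depletion of Fl2d was compared directly with depletion of CG6422 in S2R+ cells of Drosophila melanogaster. The comparison took the 3 libraries titled Fl2d and the 3 titled CG6422, 6 of the 21 libraries of the series. Libraries were assigned by their titles, and the pair was chosen because, in earlier results of these data, these depletions had the most changed genes. S2R+ is a macrophage-like line derived from embryos, and the labels call its cells embryonic. All groups were poly(A) RNA of this line grown at room temperature, and the labels give no difference between them other than the protein depleted. The 3 libraries labelled Control served as the reference point between the pair. The sources used here do not state how the depletions were made or how long they lasted. Libraries of the other depletions, of Ime4, CG7818, Ime4 with CG7818 and YT521, entered the filter, the scaling and the shared estimate of the spread. They also entered a principal component analysis and a few values given beside libraries or single genes. For the libraries titled Ime4_CG7818 the genotype label names only Ime4, and the title was followed. Nothing in the labels says that replicates came from separate cultures, so p-values measure the spread between these libraries, which may be technical.

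Both proteins belong to the pathway of N6-methyladenosine, or m6A, a methyl mark placed on adenosines of mRNA. A core of Mettl3 (Ime4) and Mettl14 (CG7818) places the mark within a larger complex, of which Fl(2)d, the fly homologue of mammalian WTAP, is a subunit together with Virilizer. Proteins with a YTH domain bind the mark, Ythdc1 (YT521-B) in the nucleus and Ythdf (CG6422) in the cytoplasm. Fl(2)d was first known in flies for its part in the sex-specific splicing of Sex-lethal. The comparison thus sets the loss of a writer subunit against the loss of a cytoplasmic reader.

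Both targeted transcripts were low in the libraries named for them. Transcripts of fl(2)d (2R:13819624-13824553 in BDGP6.54) stood at 18.1, 23.4 and 23.6 counts-per-million (CPM) in the Fl2d libraries, at 117, 117 and 118 in the CG6422 libraries and at 126, 126 and 124 in the Control libraries. Ythdf, the gene of CG6422 (3R:25033876-25039249), stood at 80.4, 84.4 and 71.4 CPM in the Fl2d libraries, at 29.1, 29.7 and 17.2 in the CG6422 libraries and at 106, 95.8 and 92.6 in Control. Each target was thus lowest, without overlap, in the libraries named for its depletion, and CG6422 replicate 3 had the least Ythdf. Between the depletions fl(2)d differed by a log2 fold change of -2.43 (SE 0.073, adjusted p = 6.07e-16) and Ythdf by 1.63 (SE 0.122, adjusted p = 2.17e-09), by the quasi-likelihood test of edgeR, adjusted by Benjamini-Hochberg over all genes tested. Log2 fold changes are given as Fl2d over CG6422 unless stated, and all adjusted p-values come from this test. Ythdf was also lower in the Fl2d libraries than in Control, with a log2 fold change of -0.32 (adjusted p = 0.0279), while fl(2)d in the CG6422 libraries differed from Control by -0.09, which did not pass (adjusted p = 0.329).

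Depth was even, with 20214568 to 28296393 counts assigned to genes per library in the series. Fl2d replicate 1 stood apart from its group: mitochondrially encoded transcripts took 3.78% of its counts, against 12.3% and 15.9% in Fl2d replicates 2 and 3 and 15% to 15.6% in the CG6422 libraries. The only other library of the series under 5% was YT521 replicate 2, at 4.99%. The 10 most abundant genes of Fl2d replicate 1 held 8.62% of counts, against 15.4% and 18.2% in the other Fl2d libraries. A chi-square of counts over genes, divided by its degrees of freedom, was 152 and 240 for Fl2d replicate 1 against replicates 2 and 3, 29 between replicates 2 and 3, and 4.69 to 14.8 within CG6422. Values without this library are given beside the counts below that it moves by over 1.5 times. The same holds for log2 fold changes of genes that passed with or without it, where the call changes or the value moves that much. For genes that passed in neither fit no such value is given, although some of these moved as much. Reads in exons shared by overlapping genes may be set aside or counted for the wrong gene, since the sources used here do not state whether strand was used. Among the genes named below with a difference this concerns vir, AdamTS-B, drpr, Rab3-GEF, axo, CG15211, PCB, CG16888, AGO2, mRpL51, Dscam1, Hsp68, Hsp27, Hsp67Ba, Diap1, PolD1, stck, parvin, rhea, unc-5, Lar, ush, Fer1HCH, futsch, Sxl, tra, grk, AGO3, cact, Dif, Dis3, Prp31, Ald1, Pglym78, ND-15 and SdhA.

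Of 8360 genes tested, 3087 differed between the depletions at an adjusted p under 0.05, or 36.9%. Of these 1590 were higher in Fl2d (19% of genes tested) and 1497 were lower (17.9%), and over all genes tested the median log2 fold change was 0.01. Most differences were small: the median size among the genes called was 0.32 on the log2 scale, and 231 genes differed at least 2-fold, 131 higher and 100 lower in Fl2d. Libraries of the 2 groups did not overlap for 3404 genes, or 40.7% of those tested, and for 2727 of the genes called. Calls were more frequent among abundant transcripts, from 25.1% in the lowest of 4 equal groups by expression to 46.1% in the highest. Without Fl2d replicate 1, 2762 genes passed, of which 2386 had also passed with it, 77.3% of the full set and 86.4% of the smaller, all in the same direction. Over 19 alternative settings of the analysis 1610 genes, or 52.2% of those called, passed in every setting with the same direction. Of these 783 were higher and 827 lower in Fl2d.

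**Figure D1:**
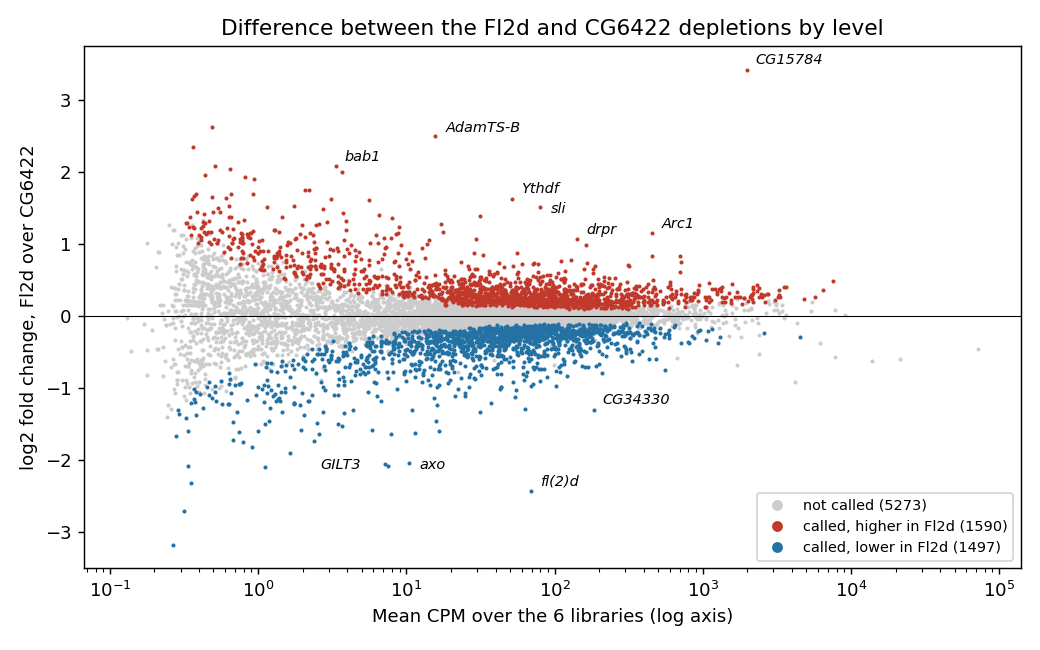
Log2 fold change of Fl2d over CG6422 against the mean CPM over the 6 libraries, on a log axis, for the 8360 genes tested. Coloured points are the 3087 genes that passed an adjusted p under 0.05 by edgeR's quasi-likelihood test, and CG15784 stands far above the rest at 3.42.

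In a principal component analysis of all 21 libraries, the first component, with 27.2% of the variance, placed the Fl2d libraries at 33.8, 21.1 and 22.6 and the other 18 between -11 and -1.04. Within the 6 libraries compared, the first component (54.7%) held the CG6422 libraries together at 17.3, 15.5 and 16.5 and spread the Fl2d libraries over -24.5, -10.1 and -14.7. The second component (19.8%) placed Fl2d replicate 1 at 17 and replicates 2 and 3 at -9.95 and -14.

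The control places the difference on one side or the other. For each of the 3087 genes the place of the Control mean was taken on the line from the CG6422 mean, set at 0%, to the Fl2d mean, set at 100%, on the log2 CPM scale. It was nearer to CG6422 for 2293 genes (74.3%) and nearer to Fl2d for 794 (25.7%), with a median of 17.4% of the way and quartiles of -16.7% and 51.5%. The share nearer to CG6422 was 74.3% for genes higher and for genes lower in Fl2d, and 87.4% for the 231 genes that differed at least 2-fold. Against Control itself 3451 genes passed for Fl2d (41.3% of those tested, 21.4% higher and 19.9% lower than Control). For CG6422 1595 genes passed (19.1%, 8.88% higher and 10.2% lower). Libraries did not overlap with those of Control for 45.8% of genes in Fl2d and for 37.2% in CG6422. These comparisons share the Control libraries.

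**Figure D2:**
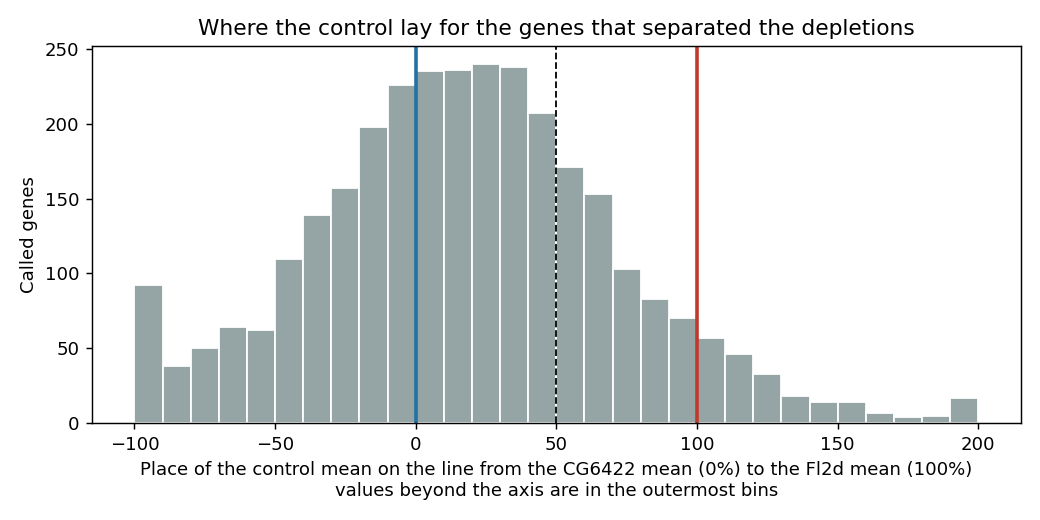
Number of the 3087 genes called between the depletions by the place of their Control mean, from the CG6422 mean at 0% (blue line) to the Fl2d mean at 100% (red line). Bins are equal steps of this percentage, which was taken on the log2 CPM scale. Values beyond the axis are in the outermost bins. The dashed line marks the midpoint, with 2293 genes to its left and 794 to its right.

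Beyond the targets, the other genes of the pathway moved little. Ythdc1, the nuclear reader, stood at 568, 474 and 480 CPM in the Fl2d libraries, at 391, 418 and 395 in CG6422 and at 374, 403 and 396 in Control. All Fl2d libraries were above all the others, and the log2 fold change was 0.34 (SE 0.079, adjusted p = 0.00212). Transcripts of vir, which encodes Virilizer, stood at 78.3, 65.4 and 69.9 CPM in Fl2d against 54.2, 57.3 and 59.4 in CG6422, without overlap, with a log2 fold change of 0.32 (adjusted p = 0.00145). The Control libraries, at 58.9, 68.7 and 65.7, spanned both. Mettl3 (0.17), Mettl14 (0.01) and the complex members nito (0), Flacc (0) and Hakai (0.13) did not pass. Flacc stood at 70, 47.6 and 46.7 CPM in Fl2d against 49, 60.2 and 55.2 in CG6422, and without Fl2d replicate 1 it was lower in Fl2d and passed (-0.22, adjusted p = 0.0321). Of 9 writer and reader genes 3 were thus higher in Fl2d and 1 lower, with a median log2 fold change of 0.13, and 3 and 2 passed without Fl2d replicate 1.

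The gene that separated the depletions most was CG15784, a protein-coding gene named only by its annotation number, on the X chromosome (X:5429571-5432526, plus strand). It stood at 3750, 3740 and 3350 CPM in the Fl2d libraries, at 305, 370 and 342 in CG6422 and at 293, 271 and 370 in Control, and between 271 and 833 in all 15 libraries outside the 2 groups. The Fl2d libraries thus lay far above every other library while the CG6422 libraries lay within the Control range, and the log2 fold change was 3.42 (SE 0.11, adjusted p = 1.23e-15). The long non-coding RNA directly upstream on the same strand, lncRNA:CR45517 (X:5428483-5429256), went the other way. Its values were 0.382, 1.92 and 1.41 CPM in Fl2d, 4.73, 3.48 and 3.42 in CG6422 and 6.2, 4.45 and 5.74 in Control, with a log2 fold change of -1.64 (SE 0.269, adjusted p = 7.78e-05) that was -1.2 without Fl2d replicate 1. The annotated exons of the pair do not overlap those of another gene.

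Next by size among genes higher in Fl2d at a mean of 50 CPM or more, apart from Ythdf, came sli, Arc1, drpr and AOX1. Transcripts of sli, which encodes Slit, the secreted ligand of Robo receptors that repels axons, stood at 126, 107 and 123 CPM in Fl2d, at 45.6, 35.6 and 44.4 in CG6422 and at 50.9, 53.5 and 43.9 in Control. Transcripts of drpr, which encodes Draper, the receptor through which glia and blood cells engulf dying cells, stood at 196, 189 and 191 CPM in Fl2d, at 89.9, 89.4 and 94.9 in CG6422 and at 101, 104 and 98.7 in Control. For both genes every Fl2d library was above all CG6422 and Control libraries, and the log2 fold changes were 1.51 (SE 0.097, adjusted p = 1.63e-10) and 1.07 (SE 0.043, adjusted p = 6.98e-14). At lower levels AdamTS-B, a secreted metalloprotease of the ADAMTS family, stood at 31.2, 22.9 and 25.6 CPM in Fl2d and at 4.3, 4.59 and 5.16 in CG6422, with Control between them at 7.08, 7.2 and 6.97. Its log2 fold change of 2.5 (SE 0.129, adjusted p = 8.98e-12) combined a higher level in Fl2d than in Control (1.9) with a lower one in CG6422 than in Control (-0.6, adjusted p = 0.00703).

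Arc1, a Gag-like protein that packs its own mRNA into capsids, and AOX1, an aldehyde oxidase, were higher in Fl2d as well. Arc1 stood at 686, 592 and 615 CPM in Fl2d, at 269, 299 and 282 in CG6422 and at 250, 248 and 274 in Control, a log2 fold change of 1.15 (SE 0.062, adjusted p = 1.33e-11). AOX1 stood at 233, 213 and 202 CPM against 102, 117 and 109, with Control lower still at 88.4, 87.3 and 93.8. AOX1 was therefore above Control in both depletions (log2 fold changes of 1.27 and 0.28), and the direct difference was 0.98 (adjusted p = 5.67e-11). Among genes at low levels, bab1, a transcription factor of the BTB family, stood at 4.92, 6.01 and 5.28 CPM in Fl2d and at 1.48, 0.918 and 1.5 in CG6422. CG33127 stood at 5.69, 5.62 and 6.48 CPM in Fl2d and at 1.43, 1.42 and 1.6 in CG6422. Rab3-GEF, an exchange factor for a GTPase of synaptic vesicles, stood at 3.82, 3.7 and 2.66 CPM in Fl2d and at 0.907, 1.19 and 0.891 in CG6422. None of them overlapped between the depletions, and the log2 fold changes were 2.08 for bab1, 2 for CG33127 and 1.75 for Rab3-GEF. The gene with the ID FBgn0040813, which has no entry in the annotation used, followed with 1.61 (adjusted p = 2.29e-08).

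Of the 1497 genes lower in Fl2d the Control mean lay between the depletions for 849, beyond CG6422 for 548 and beyond Fl2d for 100. CG13654, among those with the largest differences, stood at 2.92, 2.93 and 2.71 CPM in Fl2d, at 11.2, 11.5 and 13.6 in CG6422 and at 16.6, 16.9 and 14.7 in Control. GILT3, of a family of lysosomal thiol reductases, stood at 2.63, 2.45 and 3.37 CPM in Fl2d, at 11.1, 12.9 and 10.8 in CG6422 and at 11.6, 12.7 and 13.2 in Control. Transcripts of axo, which encodes the neurexin-related protein Axotactin, stood at 3.78, 4.18 and 4.27 CPM in Fl2d, at 16.8, 17.8 and 15.6 in CG6422 and at 21.9, 19.6 and 20.7 in Control. For these genes every Fl2d library was far below all others, with log2 fold changes of -2.08 (SE 0.11), -2.05 (SE 0.117) and -2.04 (SE 0.117), and CG13654 (-0.42) and axo (-0.3) were also below Control in CG6422, with adjusted p of 0.00202 and 0.0249. CG1544 (-2.09) and Rgk1 (-1.74), a small GTPase of the RGK family, separated likewise at levels under 5 CPM.

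At higher levels the beta tubulin betaTub97EF stood at 39.7, 35.3 and 35.2 CPM in Fl2d, at 84.9, 94 and 90.4 in CG6422 and at 94.2, 105 and 96 in Control, a log2 fold change of -1.29 (SE 0.066, adjusted p = 8.39e-12). CG34330 stood at 105, 123 and 90.1 CPM in Fl2d, at 244, 300 and 241 in CG6422 and at 335, 344 and 450 in Control. Here the order was the same in every library, with Fl2d lowest, CG6422 next and Control highest, and the direct log2 fold change was -1.3 (SE 0.128, adjusted p = 1.14e-07). CG15211 (-1.12), lncRNA:CR44526 (-1.03) and PCB, which encodes pyruvate carboxylase (-0.97), completed, with fl(2)d itself, the 6 largest differences of this direction at a mean of 50 CPM or more.

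**Figure D3:**
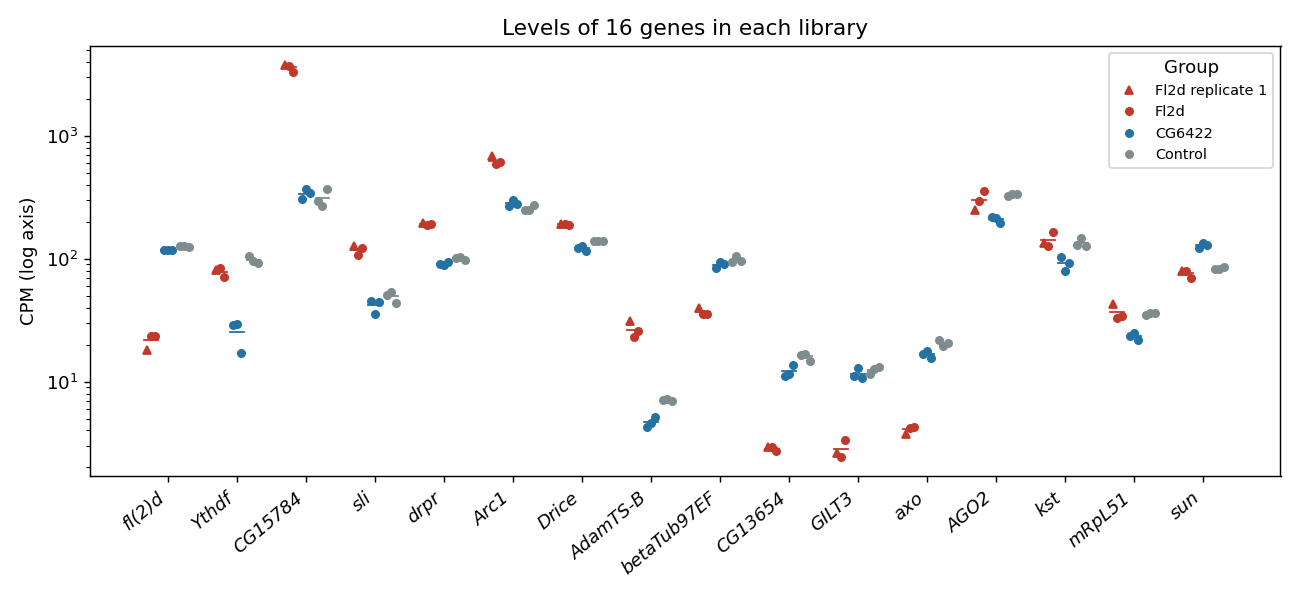
CPM on a log axis of 16 genes in each Fl2d, CG6422 and Control library, with short bars at group means and Fl2d replicate 1 drawn as a triangle. From fl(2)d to axo the CG6422 libraries sit nearer to Control than the Fl2d libraries do, except for Ythdf. From fl(2)d to axo, the genes with every CG6422 library below every Control library, whether or not the difference passed the test, are fl(2)d, Ythdf, drpr, Drice, AdamTS-B, betaTub97EF, CG13654 and axo. For AGO2, kst, mRpL51 and sun it is the Fl2d libraries that sit nearer to Control.

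For a smaller group of genes Control lay nearer to Fl2d. After Ythdf the largest by size were CG15740, slow, Hml, CG16888 and CG32170. Transcripts of slow, which encodes the secreted protein Slowdown of muscle attachment sites, stood at 10, 7.74 and 10.9 CPM in Fl2d, at 4.2, 3.4 and 3.24 in CG6422 and at 7.26, 7.16 and 5.83 in Control. The Control libraries lay between the depletions without overlap, and slow differed from Control in both, by 0.49 in Fl2d (adjusted p = 0.00489) and by -0.91 in CG6422 (adjusted p = 0.000439). Hml, which encodes Hemolectin, a clotting protein and marker of plasmatocytes, stood at 2.68, 2.21 and 3.52 CPM in Fl2d, at 1.43, 1.11 and 0.938 in CG6422 and at 2.08, 2.68 and 1.73 in Control. Only the CG6422 libraries were below the Control range, with a direct log2 fold change of 1.27 (SE 0.236, adjusted p = 0.000269). CG15740 (1.75), CG16888 (-1.1) and CG32170 (1.08) all had means under 5 CPM in each of the 3 groups. CG8745 (1.43, adjusted p = 5.22e-05) was among those with Control midway, as were Rab3-GEF, CG15740 and slow.

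At a mean of 10 CPM or more, 328 genes without overlap had their Control mean over 70% of the way towards Fl2d, 164 higher and 164 lower in Fl2d. The 15 largest of these were picked after their values were seen, and all passed in every alternative setting. AGO2, the Argonaute of the siRNA pathway, stood at 249, 298 and 359 CPM in Fl2d, at 217, 214 and 196 in CG6422 and at 324, 339 and 340 in Control, so that the CG6422 libraries were below all others, and the Fl2d libraries reached from below the Control range to above it. Its direct log2 fold change was 0.53 (SE 0.079, adjusted p = 2.65e-05), and CG6422 differed from Control by -0.67 (adjusted p = 1.65e-05). The cytoskeletal linkers kst, a beta-heavy spectrin, and shot, a spectraplakin, were likewise lowest in CG6422 of the 3 groups. For kst the values were 134, 128 and 165 CPM in Fl2d, 104, 80.1 and 92.9 in CG6422 and 129, 149 and 127 in Control, a direct difference of 0.63 (adjusted p = 2.33e-05). The libraries of the double depletion of Ime4 and CG7818 had a mean of 97.6 CPM of kst, near the 92.3 of CG6422. For shot they were 106, 100 and 127 CPM, 80.1, 70.5 and 74.9, and 107, 117 and 110, a direct difference of 0.57 (adjusted p = 1.27e-05). Epg5, a factor of autophagy (0.61), Dscam1, a neuronal recognition receptor (0.54), and mRpL51, a protein of the mitochondrial ribosome (0.65), were also lowest in CG6422.

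Higher in CG6422 than in Fl2d and Control was sun, which encodes the ATP synthase subunit Stunted. It stood at 79.6, 79 and 70.4 CPM in Fl2d, at 123, 135 and 130 in CG6422 and at 83.1, 82.2 and 86.5 in Control, so that Fl2d and Control were close and CG6422 was above both, with a log2 fold change of -0.76 (SE 0.063, adjusted p = 9.09e-09). The J-domain protein gene wus (-0.54) and Dgp-1 (-0.52) were also highest in CG6422 of the 3 groups, without overlap. For Dgp-1 the double depletion had a mean of 453 CPM, above the 436 of CG6422.

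Gene lists by function were counted next, beside the 36.9% called and the median of 0.01 over all genes. Counts of members that passed in every alternative setting are to be read beside the 52.2% of all genes called that did so. The lists were drawn up with earlier results of these data known and are described only. Genes named from them beyond the 4 with the smallest p were chosen after their values were seen.

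**Figure D4:**
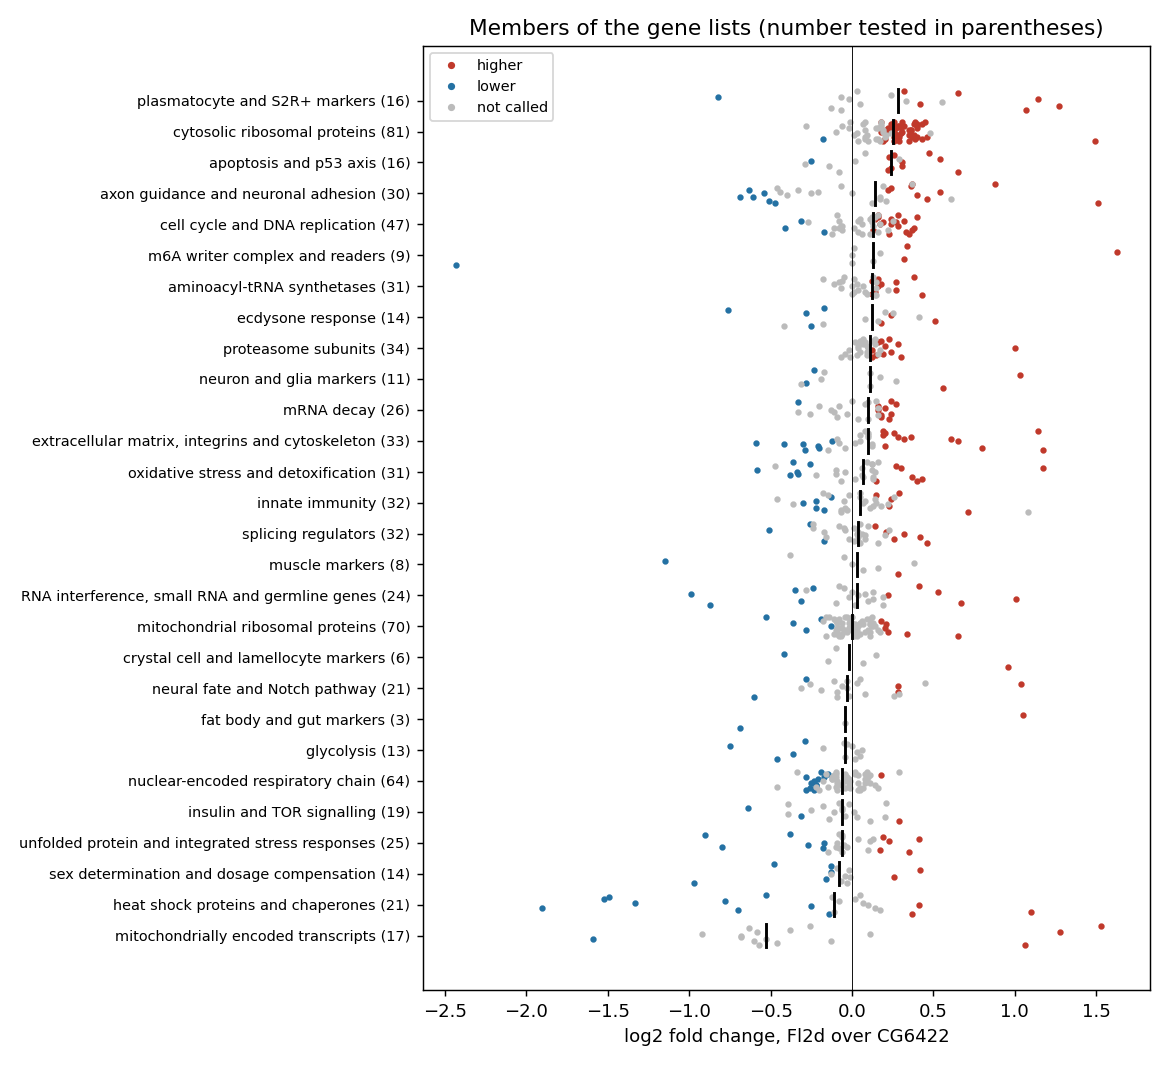
Log2 fold change of Fl2d over CG6422 for every tested member of 28 gene lists, one row a list, with the number tested in parentheses and a black bar at the median. Red and blue points passed the test, and the rows are ordered by their median, from mitochondrially encoded transcripts at -0.53 to plasmatocyte and S2R+ markers at 0.28.

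Heat shock genes were called more often (57.1%) than all genes. Of 21 heat shock and chaperone genes tested 3 were higher and 9 lower in Fl2d, with a median log2 fold change of -0.11. Hsp70Ba, one of several near-identical inducible Hsp70 genes, stood at 0.621, 0.865 and 0.603 CPM in Fl2d, at 2.44, 2.79 and 2.58 in CG6422 and at 2.92, 3.44 and 3.02 in Control. The Fl2d libraries were all below 1 CPM and the others all above 2, a log2 fold change of -1.9 (SE 0.339, adjusted p = 0.000186). The copies Hsp70Bb (-1.52), Hsp70Bc (-1.49) and Hsp70Bbb (-1.33) passed too, although reads of such copies can be assigned to the wrong one. Hsp68 (-0.7), Hsp26 (-0.53) and stv, a co-chaperone of the BAG family (-0.78), were lower, as was Hsf, the heat shock transcription factor (-0.25). Hsp26 was above Control in CG6422 (log2 fold change 0.29, adjusted p = 0.0382), whereas Hsp68 stood at Control level there. Hsp110 (0.37), Hsp27 (0.41) and Hsp67Ba (1.1) went the other way, and the abundant Hsp83 (0.02) and Hsc70-4 (0.07) did not pass.

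The unfolded protein response and the integrated stress response were divided, with 5 of 25 genes higher, 6 lower and a median of -0.06. The endoplasmic reticulum factors Sil1, a nucleotide exchange factor (0.35, adjusted p = 7.58e-06), and Cnx99A, a calnexin (0.41, adjusted p = 1.48e-05), were higher in Fl2d. Thor, the translational repressor 4E-BP, stood at 25.7, 34.9 and 28.4 CPM in Fl2d, at 44.8, 59.3 and 50.4 in CG6422 and at 57.9, 54.4 and 72.7 in Control. The groups Fl2d and CG6422 did not overlap, and the log2 fold change was -0.8 (SE 0.125, adjusted p = 4.53e-05). Ero1L, a thiol oxidase of the same compartment, was lower in Fl2d (-0.38), while the sensors Ire1 (-0.06) and Gcn2 (0.1) and the chaperone Hsc70-3 (-0.09) did not pass. Among 31 genes of oxidative stress and detoxification 7 were higher and 6 lower in Fl2d, with a median of 0.07. Catalase, from Cat, was higher (0.4, adjusted p = 8.01e-07) with Control between the depletions, and so was Gclc of glutathione synthesis (0.3), while GstE7, a glutathione transferase (-0.38), and Men, malic enzyme (-0.36), were lower.

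The apoptosis list had 9 of 16 genes higher in Fl2d and 1 lower, with a median of 0.24, and 5 and 1 of them passed in every alternative setting. Drice, an effector caspase, stood at 193, 191 and 190 CPM in Fl2d, at 123, 127 and 115 in CG6422 and at 140, 139 and 140 in Control. Fl2d was above and CG6422 below Control without overlap, and the direct log2 fold change was 0.65 (SE 0.045, adjusted p = 7.17e-10). The TNF receptor gene wgn stood at 38.1, 36.9 and 37.4 CPM in Fl2d, at 25, 26.5 and 25.9 in CG6422 and at 25.9, 27.8 and 26.1 in Control, highest in Fl2d of the 3 groups without overlap, by 0.54 (adjusted p = 1.17e-07). Its ligand egr, the fly TNF, stood at 102, 101 and 124 CPM, 84.3, 72.6 and 79, and 102, 104 and 98.2, lowest in CG6422 of the 3 groups, with a direct difference of 0.47 (adjusted p = 2.28e-05). In the YT521 libraries egr had a mean of 73.8 CPM, under the 78.6 of CG6422. Diap1, the inhibitor of these caspases, was higher in Fl2d by 0.31 (adjusted p = 8.07e-07), as was the initiator caspase Dronc by 0.24. The kinase gene bsk, which encodes JNK, was lower (-0.25), and the death inducers rpr (-0.29) and hid (0.29) did not pass.

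Of 47 cell cycle and DNA replication genes 18 were higher in Fl2d and 3 lower, with a median of 0.13. The helicase subunits Mcm5 (0.35, adjusted p = 1.04e-05) and dpa, which encodes Mcm4 (0.28), the polymerase subunit PolD1 (0.38) and the ribonucleotide reductase RnrL (0.32) passed in every setting, as did 9 of the 18 higher and 0 of the 3 lower genes in all. Mcm5 stood at 113, 99.7 and 107 CPM in Fl2d, at 87.3, 80.4 and 83.5 in CG6422 and at 91.7, 95.7 and 90.9 in Control, so that the Control libraries lay between the 2 depletions. Among regulators of mitosis, aurB, which encodes the Aurora B kinase (0.28), fzy, which encodes Cdc20 (0.13), and the checkpoint gene BubR1 (0.17) were higher, and pim, which encodes securin, was lower (-0.41). Of these only aurB passed in every alternative setting. CycA (0.06), CycB (0.01), Cdk1 (-0.06) and stg (-0.08) did not pass.

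Matrix and adhesion genes were called often, with 13 of 33 higher in Fl2d and 7 lower and a median of 0.1. Ppn, the matrix proteoglycan Papilin, stood at 25.5, 24.1 and 23.8 CPM in Fl2d, at 11, 10.4 and 11.3 in CG6422 and at 11.9, 13.3 and 11.8 in Control, highest in Fl2d of the 3 groups (1.17, SE 0.072, adjusted p = 8.55e-11). Collagen IV, from Col4a1 (1.14, adjusted p = 0.000126) and vkg (0.65, adjusted p = 0.00228), was higher at levels under 5 CPM. SPARC, a collagen-binding matrix protein, was more abundant, at 1100, 721 and 732 CPM in Fl2d, 530, 561 and 579 in CG6422 and 497, 600 and 543 in Control. All Fl2d libraries were above the rest, with replicate 1 the highest (0.61, adjusted p = 0.000155, and 0.39 without that library). Of the integrin chains, mys, the beta chain, was higher (0.36, adjusted p = 2.66e-06), and the alpha chain gene if was lower (-0.59, adjusted p = 0.00552) at levels under 5 CPM. The integrin adaptors stck (-0.3), parvin (-0.21) and rhea, which encodes Talin (-0.2), were lower in Fl2d. For LanA, the laminin alpha chain, the Fl2d libraries stood at 325, 343 and 471 CPM and CG6422 at 342, 276 and 297, which overlapped, with Control at 443, 493 and 466. It passed at 0.32 (adjusted p = 0.0165), and only Fl2d replicate 3 reached the Control range. Of this list 5 of the 13 genes higher and 4 of the 7 lower passed in every alternative setting, and 10 higher and 5 lower passed without Fl2d replicate 1.

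Axon guidance and neuronal adhesion genes had 9 of 30 higher in Fl2d and 6 lower, with a median of 0.14. Of the guidance receptors, unc-5, a Netrin receptor, stood at 39.4, 43.4 and 40.4 CPM in Fl2d, at 59.8, 68.2 and 62.1 in CG6422 and at 72, 60.5 and 67.1 in Control, lowest in Fl2d of the 3 groups (-0.63, adjusted p = 2.92e-07). The other Netrin receptor fra (-0.51, and -0.33 without Fl2d replicate 1) and caps, a leucine-rich repeat adhesion protein (-0.69), were also lowest in Fl2d. Without that library the list had 9 higher and 4 lower. Lac, an immunoglobulin adhesion protein of septate junctions, stood at 59.3, 66.4 and 60.5 CPM in Fl2d, at 47.2, 48 and 48.8 in CG6422 and at 57.5, 58.1 and 59.4 in Control, lowest in CG6422 of the 3 groups (0.37, adjusted p = 7.6e-06). Dscam1, Sema1b (0.46) and the receptor phosphatase Lar (0.36) were also lowest in CG6422, whereas robo1 (0) and robo2 (0.12), the receptors of Slit, did not pass. In the neural fate and Notch list 3 of 21 were higher and 2 lower, against 3 and 1 without Fl2d replicate 1. The coactivator mam stood at 45, 63.1 and 57.9 CPM in Fl2d against 89.4, 74.8 and 87.2 in CG6422 (-0.6, adjusted p = 6.7e-05), while the receptor N (-0.11) did not pass.

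Markers of plasmatocytes, the macrophage-like blood cells that S2R+ resembles, and of the S2R+ line itself were partly higher in Fl2d. This list includes fz, fz2 and the ferritin gene Fer1HCH, so its counts and sum are not of plasmatocyte markers alone. Of 16 tested 6 were higher and 1 lower, with a median of 0.28, and all 7 passed in every alternative setting. Their summed level was 1930 to 2010 CPM in Fl2d, 1620 to 1640 in CG6422 and 1640 to 1680 in Control. The sum is dominated by abundant members such as Fer1HCH, and the counts over members differ from it: against Control 3 were higher and 5 lower in Fl2d (median -0.02), and 0 higher and 7 lower in CG6422 (median -0.24), with the Control libraries shared. Besides drpr, Hml, Col4a1 and vkg, ush, a blood cell cofactor of GATA factors, stood at 156, 149 and 170 CPM in Fl2d, at 128, 108 and 119 in CG6422 and at 148, 159 and 139 in Control (0.42, adjusted p = 4.37e-05), lowest in CG6422 of the 3 groups. The ferritin gene Fer1HCH was highest in Fl2d of the 3 groups (0.32), and the phagocytic receptor gene NimC4, at 10.9, 9.03 and 8.19 CPM against 18.2, 14.7 and 17, was lower (-0.82, adjusted p = 3.4e-06). The GATA factor gene srp (0.03), Pxn (0.05) and crq (-0.07) did not pass, and NimC1, gcm and gcm2 did not reach the level needed for a test. In bulk RNA a shift in the number of cells of a type and a shift in RNA per cell cannot be told apart.

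Lists for other cell types held both genes at or near 0 and genes expressed in these cells. Of 10 crystal cell and lamellocyte genes 6 were tested, 1 higher in Fl2d and 1 lower, and their summed level was 124 to 134 CPM in Fl2d, 134 to 136 in CG6422 and 153 to 157 in Control, with atilla at 0 in every library and lz not above 0.189 CPM in any library of the 3 groups. The gene higher was peb, the zinc finger factor Hindsight, at 9.42, 9.42 and 10.1 CPM against 4.58, 4.86 and 5.39 (0.96, adjusted p = 1.39e-06). The integrin gene Itgbn was lower (-0.42) and did not pass without Fl2d replicate 1 (-0.3, adjusted p = 0.0566). Muscle markers had 1 higher and 1 lower of 8 tested, against 3 and 0 without that library, with sums of 691 to 820 CPM in Fl2d and 686 to 725 in CG6422, mostly of Mf and Tm1, and the myosin heavy chain Mhc was not above 0.178 CPM in any library of the 3 groups. Neuron and glia markers had 2 higher and 2 lower of 11, against 2 and 0 without Fl2d replicate 1, with sums of 197 to 233 CPM and 211 to 251. The genes nrv2, Syx1A, moody and elav were among those expressed, and brp and repo were not above 0.0961 and 0.0989 CPM in these groups. The axonal protein gene futsch was higher in Fl2d (0.56, adjusted p = 0.000882). Fat body and gut genes summed to 2.59 to 3.67 CPM and 3.6 to 4.44, with 1 higher and 1 lower of 3 tested, against 0 and 1 without that library.

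Sex determination and dosage compensation genes had 2 of 14 higher in Fl2d and 5 lower, with a median of -0.08. The dosage compensation RNA lncRNA:roX2, which coats the male X chromosome, stood at 38.2, 90.8 and 79.5 CPM in Fl2d, at 138, 141 and 129 in CG6422 and at 111, 101 and 111 in Control. Every Fl2d library was below and every CG6422 library above Control, and the log2 fold change was -0.97 (SE 0.188, adjusted p = 0.000418), or -0.67 (adjusted p = 0.000263) without Fl2d replicate 1. Between CG6422 and Control lncRNA:roX2 did not pass, nor did any other gene of this list. Sxl, the master switch of the female pathway, stood at 6.07, 9.18 and 7.19 CPM in Fl2d, at 10.9, 9.52 and 11 in CG6422 and at 11.8, 11.3 and 11.1 in Control. Its difference of -0.48 (adjusted p = 0.0077) was -0.35 and did not pass without Fl2d replicate 1 (adjusted p = 0.0568). The splicing factor gene tra, at 19.1, 19.6 and 17 CPM against 13.5, 15.3 and 12.8 (0.42, adjusted p = 0.000943), and fru, a transcription factor of male behaviour (0.26, adjusted p = 0.006), were higher in Fl2d. The counts do not resolve splice forms. Without Fl2d replicate 1 the list had 2 higher and 2 lower, and msl-1 (-0.09), msl-2 (-0.13) and mle (-0.07) of the dosage compensation complex did not pass.

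In small RNA pathways and the germline genes that S2R+ cells express, 5 of 24 were higher in Fl2d and 5 lower, with a median of 0.03. Besides AGO2, the helicase genes bgcn (1.01, adjusted p = 3.02e-05) and spn-E (0.41, adjusted p = 0.000364) were higher in Fl2d. Both were also above Control in CG6422, by 0.56 and 0.26. The growth factor gene grk stood at 16.8, 23 and 21.9 CPM in Fl2d, at 37, 39 and 36.8 in CG6422 and at 35.8, 35.6 and 34.9 in Control (-0.87, adjusted p = 5.42e-08), lowest in Fl2d of the 3 groups. The piRNA Argonaute AGO3, at 18.7, 41.1 and 27.3 CPM against 64.8, 45.1 and 64.2, was lower in Fl2d (-0.99, adjusted p = 0.000594). AGO2, grk and AGO3 are among the genes with overlapping exons listed above. Without Fl2d replicate 1 the list had 9 higher and 4 lower.

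Immune genes had 5 of 32 higher and 5 lower in Fl2d, with a median of 0.05, and none of the 5 lower passed without Fl2d replicate 1. Tep4, a thioester protein that opsonizes microbes, stood at 389, 345 and 428 CPM in Fl2d, at 246, 228 and 238 in CG6422 and at 268, 268 and 256 in Control, highest in Fl2d of the 3 groups (0.71, SE 0.057, adjusted p = 7.02e-09). The Toll pathway inhibitor cact (0.23) and the factor Dif (0.29) were at Control level in Fl2d and below it in CG6422. Both calls were lost in a fit of the 6 libraries alone, that of Dif also without CG6422 replicate 2, with adjusted p up to 0.0719 for each. Of 26 mRNA decay genes 9 were higher and 1 lower, with a median of 0.1, led by the exosome nuclease Dis3 (0.23, adjusted p = 0.00102) and tral of cytoplasmic granules (0.16, adjusted p = 0.00166), and 3 of the 9 passed in every alternative setting. In the fit without Fl2d replicate 1, 11 were higher and 0 lower, and the call of tral was lost in the fit of the 6 libraries alone. Of 32 splicing regulators 6 were higher, led by the tri-snRNP factor Prp31 (0.46, adjusted p = 1.25e-06), and 3 lower, led by the hnRNP gene sm (-0.51, adjusted p = 0.000185). Fewer of them were called (28.1%) than of all genes.

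Metabolic genes differed in a few places. Of 13 glycolysis genes 4 were lower in Fl2d and 0 higher, with a median of -0.04. Ldh, lactate dehydrogenase, stood at 368, 501 and 365 CPM in Fl2d, at 579, 845 and 657 in CG6422 and at 679, 589 and 859 in Control, a log2 fold change of -0.75 (SE 0.153, adjusted p = 0.000619). The aldolase Ald1 (-0.46) and the mutase Pglym78 (-0.36) were lower too, as was sima, the hypoxia-inducible factor (-0.29), and these 4 passed in every alternative setting. Tpi (-0.18), Pfk (0.06), Gapdh1 (-0.04) and PyK (0.02) did not pass. Tpi was lower and passed without Fl2d replicate 1 (-0.33, adjusted p = 0.0246), and the list had 5 lower. In insulin and TOR signalling 1 of 19 was higher and 2 lower, against 1 and 1 without Fl2d replicate 1. Rheb, the activator of TOR, was lowest in CG6422 of the 3 groups, at 58.2, 58.9 and 53.6 CPM against 68.3, 70.1 and 70.8 in Fl2d and 70.2, 69.4 and 67.7 in Control (0.29, adjusted p = 0.000309). The TOR inhibitor scyl was lower in Fl2d (-0.64, adjusted p = 0.00148). Ecdysone response genes had 3 of 14 higher, with Eip75B, a nuclear receptor, first by size (0.51, adjusted p = 0.00205), and 4 lower, against 1 and 3 without Fl2d replicate 1.

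Cytosolic ribosomal protein genes formed the largest block, with 51 of 81 higher in Fl2d and 1 lower (64.2% called) and a median of 0.25. RpS23 stood at 4490, 3790 and 3810 CPM in Fl2d, at 2890, 3240 and 3030 in CG6422 and at 3240, 3340 and 3630 in Control (0.4, SE 0.074, adjusted p = 0.000244). RpL6 stood at 1750, 1370 and 1390 CPM, 1100, 1180 and 1150, and 1230, 1280 and 1330 (0.39, adjusted p = 0.000326). In both, Fl2d replicate 1 was the highest of the 9 libraries. The median of the list, as log2 CPM minus the Control mean, was 0.355, 0.145 and 0.05 in the Fl2d libraries and -0.149, 0.033 and -0.032 in CG6422. In the Control libraries it was -0.087, -0.006 and 0.086. Fl2d replicate 3 thus lay within the Control range, as did CG6422 replicates 2 and 3. Without Fl2d replicate 1, 26 were higher and 1 lower with a median of 0.14, without CG6422 replicate 1, 22 were higher, and in a fit of the 6 libraries alone, 18. The paralog RpS5b, at 4.97, 3.6 and 3.67 CPM against 1.1, 1.8 and 1.41, differed most (1.49, adjusted p = 4.21e-06), although its reads may be shared with RpS5a.

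Other protein synthesis and turnover lists leaned the same way with smaller values. Of 34 proteasome genes 12 were higher and 0 lower (median 0.11), led by the regulatory subunits Rpn2 (0.3) and Rpn1 (0.28), and 8 were higher without Fl2d replicate 1. Of 31 aminoacyl-tRNA synthetase genes 10 were higher and 0 lower (median 0.12), led by GlyRS (0.43, adjusted p = 2.6e-07), and 6 were higher and 1 lower without that library. The share called, 35.3% and 32.3%, was below that of all genes.

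Counts of mitochondrial genes moved with Fl2d replicate 1. Of 64 nuclear genes of the respiratory chain 1 was higher and 13 lower in Fl2d, with a median of -0.06, and without this library 0 were higher and 26 lower, with a median of -0.16. The complex I subunit ND-15, at 149, 159 and 153 CPM in Fl2d, 177, 189 and 174 in CG6422 and 155, 150 and 156 in Control, was highest in CG6422 of the 3 groups (-0.23, adjusted p = 0.000981). SdhA of complex II (-0.28) and ND-23 (-0.22) were lower in Fl2d as well. Mitochondrially encoded transcripts had 3 of 17 higher, 1 lower and a median of -0.53, and without Fl2d replicate 1 none passed and the median was -0.12. Among them mt:ND6, a subunit of complex I, stood at 46.9, 10.6 and 15.5 CPM in Fl2d against 10.1, 8.38 and 11.9 in CG6422, far higher in Fl2d replicate 1 than in any of the other 5 libraries. Mitochondrial ribosomal protein genes had 6 of 70 higher and 5 lower (15.7% called), and 2 and 10 without this library.

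**Figure D5:**
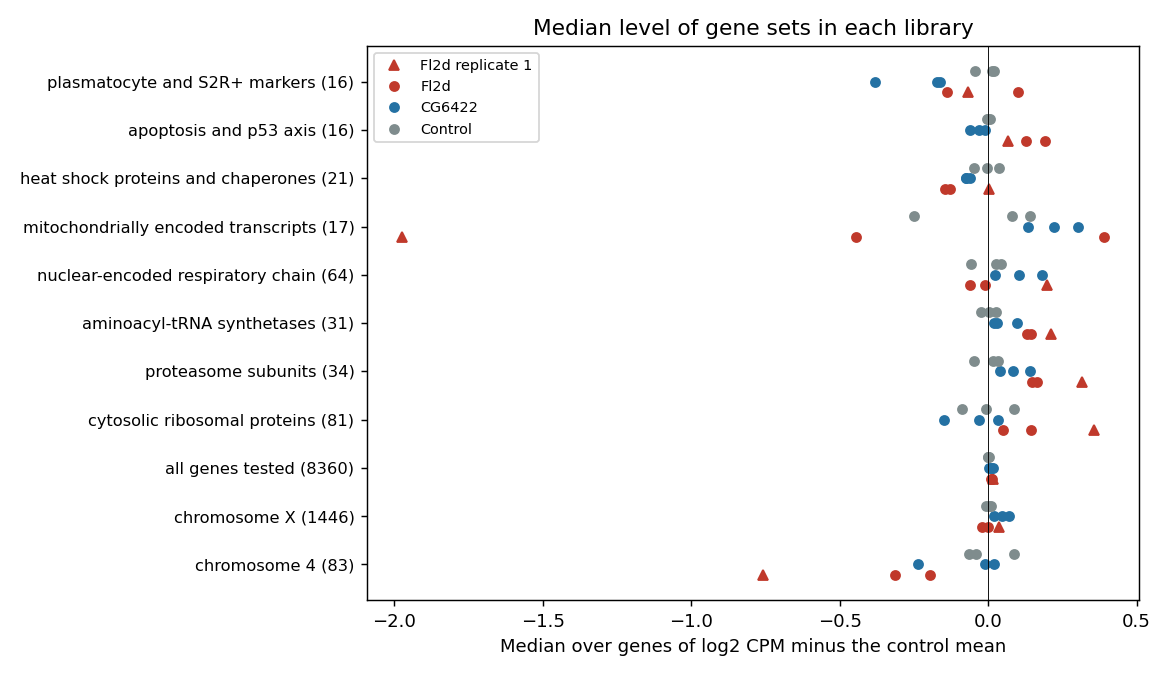
Median over the genes of each set of log2 CPM minus the Control mean, one point a library, for 8 gene lists, 2 chromosomes and all genes tested, with Fl2d replicate 1 as a triangle. Fl2d replicate 1 lies at -1.97 for mitochondrially encoded transcripts, at -0.76 for chromosome 4 and at 0.355 for ribosomal proteins, and at 0.017 for all genes.

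Chromosome 4, which is small and largely heterochromatic, was lower in Fl2d. Of its 83 genes tested 2 were higher and 32 lower, with a median log2 fold change of -0.324. Medians by library, as log2 CPM minus the Control mean, were -0.76, -0.195 and -0.313 in Fl2d, 0.021, -0.236 and -0.009 in CG6422 and between -0.066 and 0.088 in Control. CG6422 replicate 2 thus overlapped the Fl2d libraries, and without Fl2d replicate 1 the counts were 5 higher and 18 lower with a median of -0.156. Genes on the X chromosome had 188 of 1446 higher (13%) and 325 lower (22.5%), with a median of -0.043, and 166 and 327 without Fl2d replicate 1. Medians by library for the X were 0.036, 0.001 and -0.021 in Fl2d and 0.019, 0.07 and 0.046 in CG6422. The 2 groups thus overlapped, with Fl2d replicate 1 above CG6422 replicate 1. In the comparisons with Control, which share those libraries, the X median was 0.003 for Fl2d and 0.046 for CG6422. On the arms of chromosomes 2 and 3 the medians lay between 0.008 and 0.03.

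Exon length went with the share of genes higher in Fl2d and with the median log2 fold change, but not steadily with the share lower. In 4 equal groups of genes from the shortest to the longest exons, 11.9%, 17.4%, 20.9% and 25% were higher in Fl2d. In the same order 17.4%, 19.6%, 19.5% and 15.5% were lower, and the median log2 fold change was -0.023, -0.002, 0.013 and 0.035. Without Fl2d replicate 1 these medians were -0.053, -0.017, 0.01 and 0.064. The groups began at 31, 1240, 2025 and 3435 bases of merged exons. Relative to Control, the medians went from 0.067 to -0.065 in Fl2d and from 0.102 to -0.094 in CG6422. These comparisons share the Control libraries, so a length trend in those libraries would enter both.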

How the data were processed

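Counts per gene from 21 poly(A) RNA libraries (Illumina TruSeq, per the labels' protocols) were used as the authors deposited them: raw read counts for 17558 gene IDs, with 5 summary lines that name no gene and stayed out of library sizes and tests. The tools named in the submitters' processing notes are DESeq2 1.6.3, HTSeq 0.6.1, STAR 2.4.0h and CASAVA 1.8.4, and the build is BDGP6. Strand use and annotation release were not given in the sources used here. Reads aligned to several places, one of these lines, made up 11% to 18.7% of reads. A gene at 1 CPM rested on 20.2 to 28.3 counts in the libraries of lowest and highest depth. The labels mention no molecular identifiers.

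Names, positions and exon lengths came from Ensembl's annotation of BDGP6.54, which has 17252 of the IDs; the 306 others are given by ID.

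Libraries were scaled by TMM, genes filtered by filterByExpr with a minimum count of 10, and 8360 genes fitted with edgeR 4.0.16 (R 4.3.3, quasi-likelihood, prior count 0.125, 7 groups, 14 residual degrees of freedom, common biological coefficient of variation 6.37%). The scripts were tested on simulated data. DESeq2 1.42.0 served as an alternative. CPM were computed from the deposited counts and TMM-scaled library sizes, and principal components used log2 CPM with a prior count of 2.

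Named genes were the 9 writers and readers, the 8 highest and 8 lowest called genes without overlap at a mean of at least 1 CPM, the 6 and 6 at 50 CPM, the 6 with the control nearer to Fl2d and the 4 with it 30% to 70% of the way, and up to 4 called genes from each list; others are marked in the text. Of 576 list entries 547 were matched, and InR, Tor, S6k, Dl and trol were among those not matched and not tested. The libraries, genes and the 28 lists were chosen with earlier results of these data known.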

Additional observations from a re-analysis of the deposited data

Results flagged for a closer look

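One signal lies outside the gene counts. Reads that aligned to more than 1 place, which the counting set aside, made up 15.9%, 13.8% and 15.1% in the CG6422 libraries (mean 14.9%, SD 1.06, n = 3), against 13.6%, 12.1% and 13.2% in Control. Every CG6422 library was above every Control library. The Fl2d libraries, at 11.8%, 18.7% and 16.3%, spanned both groups, with replicate 1 the lowest. What these reads came from cannot be read from the deposited counts.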

How the results depend on the processing

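The comparison of Fl2d with CG6422 kept its count within 1.5 times of 3087 under every alternative except a fit of the 6 libraries alone. That fit called 1784 genes (861 higher, 923 lower in Fl2d) and 147 list members in place of 288. A separate fit of the Fl2d and Control libraries alone called 2224 genes (1051 higher in Fl2d). One of the CG6422 and Control libraries alone called 1656. Such fits have fewer libraries to estimate the spread. Replicate numbers as a block gave 3224 calls, and with a correction for exon length 3350. For CG6422 against Control the length correction without the block gave 1195 calls in place of 1595, and 598 in place of 853 lower in CG6422. Deviations of same-numbered Fl2d and CG6422 libraries from their group means correlated across genes at -0.173, -0.0549 and 0.0156. The replicate numbers were therefore not taken to pair the libraries. Leaving out 1 library at a time gave 2602 to 3190 calls (1326 to 1611 higher, 1255 to 1579 lower) and 218 to 306 list members. For Fl2d against Control it gave 2791 to 3497 (1446 to 1794 higher, 1338 to 1791 lower). For CG6422 against Control it gave 844 to 1950 (343 to 919 higher, 488 to 1031 lower), with 844 without CG6422 replicate 2 and 875 without Control replicate 2, so this count rests on single libraries. The share of genes with the control nearer to CG6422 was 70.1% to 79.9% over these fits. Of 142 called genes picked by the stated rules, 120 passed in every alternative, 22 did not in at least 1, and none reversed. Other genes named in the text are outside this count, and of those fzy, BubR1, pim and LanA did not pass in every alternative. Among the 22 genes picked by rule that did not, Sxl, Ilp6, Itgbn, mira, moody, nrv2, sls, Su(H), Yp3 and the mitochondrially encoded mt:ATPase8, mt:ND4L, mt:ND6 and mt:tRNA:Tyr-GTA did not pass without Fl2d replicate 1. The cause of the other changes was not tested. With 3 libraries a group, genes under 1 CPM rest on fewer than 28.3 counts a library, and a difference that did not pass at this depth is not shown to be absent.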
